A study of Mus musculus with 26 samples.

Results

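Visceral endoderm takes up maternal protein and secretes carriers, and the 10 genes described here encode that machinery: the endocytic receptors and adaptor Cubn, Amn, Lrp2 and Dab2, and the secreted carriers Ttr, Afp, Apoa1, Apob, Apoe and Rbp4. They were picked by name from the 55291 genes in the count tables. The rule used no threshold on measured values, but the set was proposed with earlier results of these data known. RNA-seq counts of 26 libraries in 10 groups were used. The first table held 4 groups of 2 libraries from E14TG2a mouse embryonic stem cell (ESC) lines. In these lines the endogenous CTCF carried an AID2 degron, OsTIR1(F74G) was expressed from Rosa26, a Flag-Halo CTCF transgene at the Tigre locus was induced with doxycycline, and an mCherry reporter sat at Hb9. The transgene was full length (WT) or lacked the first zinc finger (ΔZF1). All 4 groups, the WT controls included, received 1 µM 5-Ph-IAA and 1 µg/ml doxycycline for 24 h. Each transgene was studied in 1 clone derived from the same degron clone, so ΔZF1 and clone cannot be told apart. ESC-WT and ESC-ΔZF1 were the stem cells, and NPC-WT and NPC-ΔZF1 were the same lines after 2 days in N2B27 on laminin, which the study called neural progenitor cells (NPCs). The second table held 6 groups of 3 libraries: unedited E14 cells (WT) and E14 clones homozygous for an eGFP cassette with an SV40 polyadenylation signal that truncates Podxl (Podxl pA) or Grb10 (Grb10 pA), each as ESCs and as NPCs. The truncated lines were edited clones set beside unedited cells, so truncation, clone and eGFP cassette cannot be told apart. The labels number the replicates without saying whether they were separate cultures, so the p-values measure the spread between these libraries.

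Cubilin (Cubn) and megalin (Lrp2) are giant receptors that bind filtered or maternal proteins, vitamin carriers and lipoproteins at the apical surface of absorptive epithelia. Amnionless (Amn) anchors cubilin in the membrane and carries it to the cell surface, and Dab2 is the clathrin adaptor that brings these receptors into coated pits. The carriers are proteins best known from plasma. Transthyretin (Ttr) carries thyroid hormone and, bound to retinol-binding protein (Rbp4), vitamin A. Alpha-fetoprotein (Afp) is a fetal relative of albumin, and apolipoproteins A1, B and E (Apoa1, Apob, Apoe) are built into lipoproteins. In the early mouse embryo the visceral endoderm and its yolk sac make these proteins before the liver does, and Ttr is also typical of choroid plexus, a brain epithelium.

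Library totals ran from 6425179 to 28730435 counts in the rescue table and from 1907505 to 8845087 in the truncation table. Levels are counts per 1000000 (CPM) scaled by TMM factors within each table, and per-length levels divide CPM by the kilobases of annotated exon. The tables were scaled separately and were tested separately. The 2 NPC-WT libraries differed from each other most (chi-square per degree of freedom 63.1, against 1.69 to 27.6 in the other replicate pairs). The stem cell markers behaved as the labels state: the summed CPM of Pou5f1, Nanog, Zfp42, Esrrb, Klf4 and Tbx3 was 4133 to 4528 in the rescue ESCs and 435 to 604 in the rescue NPCs. The summed level of 6 neural progenitor markers was 38.4 to 50.7 CPM in rescue ESCs and 106 to 144 CPM in rescue NPCs, and Hes5 had no counts in NPC-WT. Podxl was at 232 to 259 CPM in NPC E14 WT and at 20.8 to 24.3 CPM in NPC Podxl pA. Grb10 was at 769 to 814 CPM in NPC E14 WT and at 52.2 to 59.4 CPM in NPC Grb10 pA. Reads of the transgene and of endogenous Ctcf were not separated in these counts, and their sum differed between the lines: Ctcf was at 562 to 577 CPM in ESC-WT and 831 to 860 CPM in ESC-ΔZF1, and at 449 to 474 CPM in NPC-WT and 785 to 798 CPM in NPC-ΔZF1. In the truncation table, Ctcf was at 229 to 233 CPM in ESC E14 WT and 134 to 157 CPM in ESC Grb10 pA. In NPCs Ctcf was at 211 to 218 CPM in E14 WT and 155 to 161 CPM in Grb10 pA. The Podxl pA lines had 234 to 251 CPM in ESCs and 213 to 221 CPM in NPCs. The part of these differences in the results that follow was not tested.

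In NPCs the receptors and the adaptor made up most of the CPM of these genes, a scale not divided by length. Together the 10 genes took 161 to 282 CPM in the rescue ESC libraries, 1118 to 1195 CPM in NPC-WT and 2794 to 3044 CPM in NPC-ΔZF1. In the truncation table the sums were 141 to 211 CPM in the ESC libraries, 921 to 1237 in NPC E14 WT, 1501 to 1560 in NPC Podxl pA and 1051 to 1248 in NPC Grb10 pA. Per kilobase of exon, Apoe was the highest in NPC-ΔZF1 (116 ± 1.54 CPM per kb, SD, n = 2), followed by Dab2 (72.2 ± 3.29), Cubn (68.6 ± 6.06) and Lrp2 (63.4 ± 6.16). The libraries of Cubn overlapped with those of Dab2 and of Lrp2, while Dab2 lay above Lrp2 in both. Ttr followed at 7.63 ± 0.13, then Amn (3.12 ± 0.25), Apob (2.56 ± 0.32), Rbp4 (2.41 ± 0.42), Afp (1.19 ± 0.16) and Apoa1 (0.32 ± 0.05), with Apob and Rbp4 overlapping. Amnionless RNA was therefore far below that of its partner on this scale: in NPC-ΔZF1 the per-length level of Cubn was 21.8 and 22.1 times that of Amn in the 2 libraries. In NPC E14 WT the order began with Apoe, Lrp2, Dab2 and Cubn, at 43.9, 28.6, 22.1 and 18.6 CPM per kb. The order was the same in NPC Grb10 pA, with Apoe at 86.6, Lrp2 at 35.3, Dab2 at 22.3 and Cubn at 14.5 CPM per kb.

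**Figure D1:**
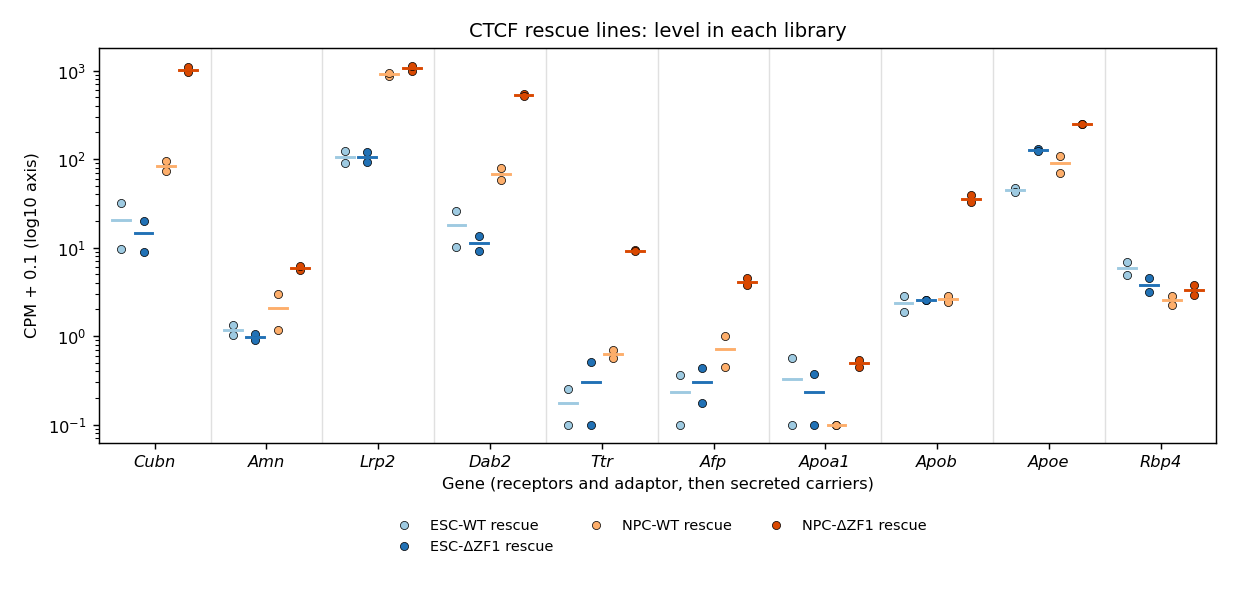
CPM plus 0.1 on a log10 axis for each of the 10 genes (columns) in the 8 rescue libraries. Points are single libraries, coloured by group, and short lines are group means. Both NPC-ΔZF1 points of Cubn (960 and 1088 CPM) stand above both NPC-WT points (94.5 and 72.8 CPM), while those of Lrp2 stand close together. Heights compare groups within a gene, because levels are not divided by length.

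The comparison of NPC-ΔZF1 with NPC-WT set the ΔZF1 clone beside the WT clone after differentiation. Of the 10 genes, 7 rose: Cubn, Amn, Dab2, Ttr, Afp, Apob and Apoe. Lrp2 and Rbp4 were tested and not called, and Apoa1 fell below the filter on low counts. A gene was called where the adjusted p was 0.05 or less and the absolute log2 fold change reached 0.5 (edgeR's quasi-likelihood test, Benjamini-Hochberg adjustment over 16641 genes). Among all tested genes 17.6% were called, and 7.19% were called higher. Ttr and Afp passed the filter through their NPC-ΔZF1 counts, so a gene of that kind had to differ. The median log2 fold change was 2.53 over the 9 tested genes and -0.00 over all tested genes. In bulk RNA, more cells of a type and more RNA per cell cannot be told apart.

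Cubn was at 94.5 and 72.8 CPM in NPC-WT and at 960 and 1088 CPM in NPC-ΔZF1, a gap far wider than either pair of replicates. The log2 fold change was 3.61 (SE 0.45, adjusted p = 0.000816, edgeR), a 12.2-fold difference. Dab2, the adaptor, moved with it, from 78.9 and 58.1 CPM to 547 and 513 CPM (log2 fold change 2.95, SE 0.32, adjusted p = 0.000423). Amn was at 1.06 and 2.92 CPM in NPC-WT and at 5.43 and 6.07 CPM in NPC-ΔZF1. Its 2 NPC-WT values lay far apart, and its call (log2 fold change 1.66, SE 0.37, adjusted p = 0.0119) was lost when either NPC-ΔZF1 library was left out (adjusted p = 0.068 and 0.095) and when the fit held these 2 groups alone (0.0663).

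Lrp2, the other giant receptor of this uptake system, did not pass the test. It was at 868 and 946 CPM in NPC-WT and at 986 and 1131 CPM in NPC-ΔZF1. The ranges did not overlap, but the log2 fold change was 0.22 (SE 0.16, adjusted p = 0.351). The balance of the receptors thus differed between the groups: the per-length level of Cubn was 0.122 and 0.086 times that of Lrp2 in the NPC-WT libraries and 1.09 and 1.08 times in NPC-ΔZF1. Genes on the opposite strand overlap exons of Cubn (Gm13270) and Dab2 (Gm18888) in the annotation, and the counting did not use strand. The study does not say how reads in the shared stretches were assigned, so whether they were added or left out is not known.

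Among the carriers, Ttr and Apob had larger fold change estimates than Cubn, and Afp, Apoe and Rbp4 had smaller ones. The SEs of Ttr, Apob and Cubn do not set these 3 apart. Apob was at 2.71 and 2.32 CPM in NPC-WT and at 32.5 and 38.7 CPM in NPC-ΔZF1, a 13.9-fold difference (log2 fold change 3.80, SE 0.20). Its adjusted p in edgeR was the lowest of the 9 (8.67e-06). Ttr was at 0.47 and 0.60 CPM in NPC-WT, from 11 and 7 counts, and at 9.16 and 8.94 CPM in NPC-ΔZF1, from 260 and 243 counts (log2 fold change 4.12, SE 0.44, adjusted p = 0.000375). Afp, the fetal carrier, went from 0.89 and 0.34 CPM to 3.63 and 4.38 CPM (log2 fold change 2.53, SE 0.45, adjusted p = 0.00446), and its call was lost without the second NPC-ΔZF1 library (adjusted p = 0.0517). Apoe was the most abundant carrier in both groups, at 69.3 and 109 CPM in NPC-WT and 246 and 251 CPM in NPC-ΔZF1 (log2 fold change 1.48, SE 0.18, adjusted p = 0.000689).

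Apoa1 had no counts in either NPC-WT library and 10 and 12 counts in the NPC-ΔZF1 libraries. Set against a floor of 3 counts over the NPC-WT group, its level was 4.65-fold higher. That value takes no account of counting error in the NPC-ΔZF1 counts. Rbp4, the vitamin A carrier, differed by little, with 2.12 and 2.75 CPM in NPC-WT and 3.63 and 2.83 CPM in NPC-ΔZF1 (log2 fold change 0.44, SE 0.29, adjusted p = 0.297). Both NPC-ΔZF1 libraries lay above both NPC-WT libraries for 9 of the 9 tested genes, a separation seen in 30.1% of all tested genes. Ttr and Afp were among the 9 through their NPC-ΔZF1 counts, which favoured this separation, so the count is a description.

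In ESCs the same comparison of ΔZF1 with WT called 1 of the 9 tested genes, Apoe, which was higher. Among all tested genes 3.61% were called, and 1.29% were called higher. Apoe was at 46.5 and 42.7 CPM in ESC-WT and at 129 and 123 CPM in ESC-ΔZF1 (log2 fold change 1.504, SE 0.19, adjusted p = 0.00685, edgeR). The 2 groups were well separated, yet the call was lost when any 1 of the 4 ESC libraries was left out (adjusted p = 0.0655 to 0.146). Cubn was at 31.5 and 9.46 CPM in ESC-WT and at 8.74 and 19.99 CPM in ESC-ΔZF1, so the groups overlapped (log2 fold change -0.40, SE 0.49, adjusted p = 0.765). Dab2 varied between the ESC libraries in the same order as Cubn, with 25.8 and 9.98 CPM in ESC-WT and 8.96 and 13.3 CPM in ESC-ΔZF1. Lrp2 (122 and 89.0 against 93.1 and 119 CPM) and Apob (2.75 and 1.76 against 2.42 and 2.43 CPM) overlapped as well. Rbp4 was lower in both ESC-ΔZF1 libraries, at 4.41 and 3.04 CPM against 4.74 and 6.72 CPM, with an adjusted p of 0.249 that fell to 0.03 and 0.047 when the first or second NPC-WT library was left out of the shared fit. Ttr, Afp and Apoa1 had at most 6 counts in any ESC library of this table.

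The difference between the ΔZF1 effects of the 2 cell states was tested directly as an interaction. It was called for 3 of the 9 tested genes, Cubn, Dab2 and Apob, each with a larger effect in NPCs, against 2.7% of all tested genes called and 1.59% called higher. For Apob the difference of log2 fold changes was 3.59 (SE 0.36, adjusted p = 0.00198, edgeR). For Dab2 it was 3.53 (SE 0.49, adjusted p = 0.00801), a call lost without the first ESC-ΔZF1 library (adjusted p = 0.0665). For Cubn it was 4.01 (SE 0.66, adjusted p = 0.0141), lost without that library (0.0742) or either NPC-ΔZF1 library (0.058 and 0.0587). For Apoe it was -0.02 (SE 0.25, adjusted p = 0.979): its log2 fold change was 1.504 in ESCs and 1.48 in NPCs.

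**Figure D2:**
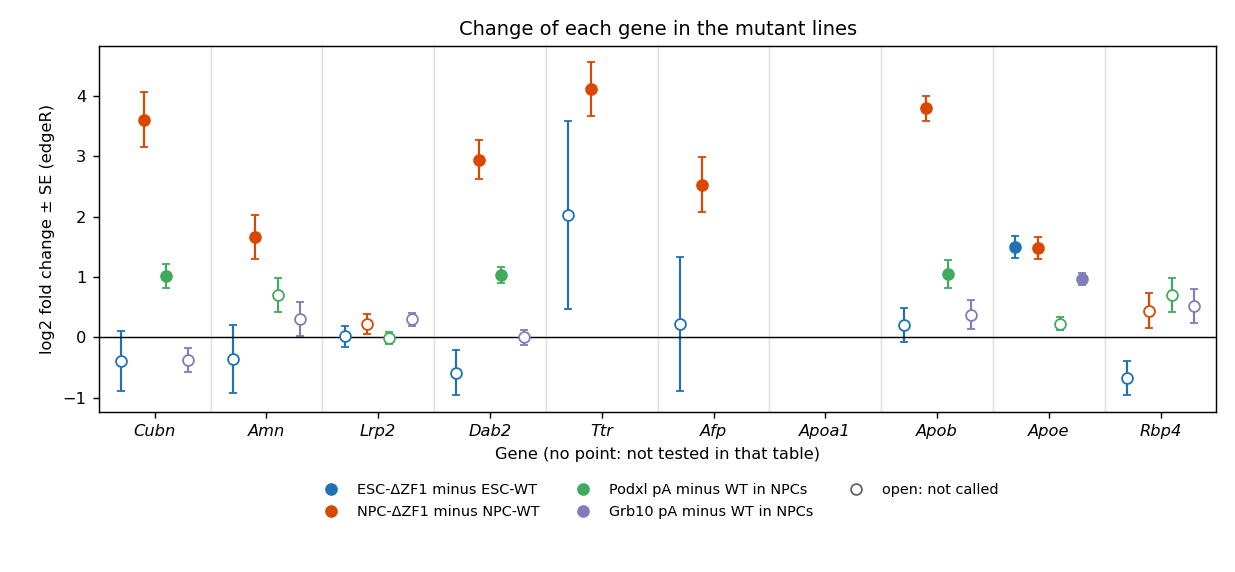
Log2 fold change with its standard error for each gene in 4 comparisons of a mutant line with its control. Filled points were called. The NPC-ΔZF1 points of Cubn (3.61), Ttr (4.12) and Apob (3.80) are the farthest from 0, Lrp2 stays near 0 in each comparison, and Apoe is filled in ESC-ΔZF1, NPC-ΔZF1 and Grb10 pA NPCs.

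Cubn, Dab2 and Lrp2 were higher in NPCs than in ESCs in the control lines of both tables, while Amn was called higher in E14 WT and not in NPC-WT against ESC-WT (adjusted p = 0.291, edgeR). In E14 WT, 6 of the 7 tested genes rose from ESCs to NPCs, where 32.8% of all tested genes were called and 16.5% called higher. Ttr, Afp and Apoa1 fell below the filter in this table. Of the 7 tested genes 4 (Cubn, Amn, Apob and Rbp4) passed that filter through the NPC libraries, so genes of that kind tend to be higher in NPCs by selection and the count is a description. Cubn was at 0.44, 0.68 and 0 CPM in the ESC libraries, 6 counts in all, and at 237, 357 and 242 CPM in the NPC libraries. The log2 fold change of 9.17 (SE 0.44, adjusted p = 1.73e-15, edgeR) rests on those 6 counts for its size. Dab2 went from 3.92, 2.91 and 0.78 CPM to 151, 170 and 166 CPM (log2 fold change 5.83, SE 0.23, adjusted p = 2.77e-17).

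Lrp2 was already expressed in ESCs, which sets it apart from Cubn in level. It was at 67.8, 82.2 and 62.5 CPM in ESC E14 WT and at 427, 586 and 422 CPM in NPC E14 WT (log2 fold change 2.74, SE 0.12, adjusted p = 1.11e-16, edgeR). Amn rose from 0, 0.68 and 0.78 CPM to 5.18, 5.81 and 4.72 CPM, and Apob from 0.22, 0.68 and 0.39 CPM to 7.77, 9.78 and 7.41 CPM. Rbp4 overlapped between the states (1.96, 2.23 and 3.49 against 3.24, 4.58 and 5.06 CPM), and its call (log2 fold change 0.85, adjusted p = 0.0471) was lost under 12 of 24 alternatives. Apoe differed little, at 115, 89.9 and 97.5 CPM in ESCs and 90.0, 102 and 89.7 CPM in NPCs (log2 fold change -0.09, SE 0.11, adjusted p = 0.527). The Podxl pA and Grb10 pA lines gave 6 and 7 of 7 tested genes higher in NPCs, beside 17.1% and 17.2% of all tested genes called higher (31.8% and 34.6% in either direction), with the same 4 genes filtered in through NPC libraries.

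In the rescue table, NPC-WT exceeded ESC-WT for Cubn, Lrp2, Dab2 and Apoe, and Rbp4 was lower, among 9 tested genes (41.9% of all tested genes called, 22% higher and 19.9% lower). Cubn rose 4.42-fold there (log2 fold change 2.14, SE 0.47, adjusted p = 0.00392, edgeR), from an ESC-WT level of 31.5 and 9.46 CPM. Lrp2 rose 8.65-fold (log2 fold change 3.11, SE 0.18). Apob was at 2.75 and 1.76 CPM in ESC-WT and at 2.71 and 2.32 CPM in NPC-WT, so the groups overlapped. Ttr had 1 count in ESC-WT and 18 in NPC-WT, a ratio of 11.2 with a counting interval of 1.76 to 466 (95%, exact). It was not called by edgeR (adjusted p = 0.0532) and was called by DESeq2 (0.0427), with RLE factors (0.0499), with no filter and when any 1 of 5 libraries was left out. Rbp4 fell by 1.31 on the log2 scale (SE 0.30, adjusted p = 0.00476), a call lost without the second ESC-WT library (adjusted p = 0.0946). Cubn was at 8.74 to 31.5 CPM in the 4 rescue ESC libraries and at 0 to 11.3 CPM in the 9 ESC libraries of the other table. It was at 94.5 and 72.8 CPM in NPC-WT and at 237 to 357 CPM in NPC E14 WT. These levels come from tables scaled separately, from lines with different genotypes and treatments, and were not tested.

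NPC-ΔZF1 exceeded ESC-ΔZF1 for 8 of 9 tested genes, the exception being Rbp4 (37.3% of all tested genes called, 20.4% higher). Ttr and Afp, among those 8, passed the filter through NPC libraries alone. Genes of that kind tend to be higher in NPCs by selection, so the count is a description. Cubn differed 70.9-fold (log2 fold change 6.15, SE 0.52, adjusted p = 9.28e-06, edgeR) and Dab2 47.4-fold. This comparison shares its NPC-ΔZF1 libraries with the one against NPC-WT, and the 2 are not independent.

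**Figure D3:**
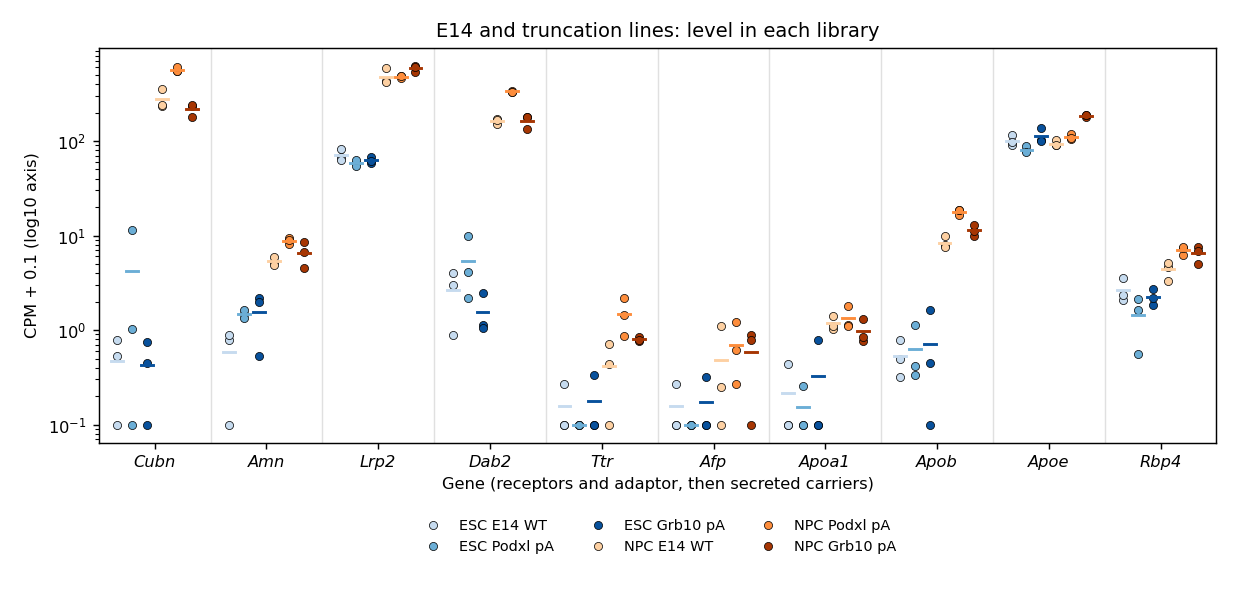
CPM plus 0.1 on a log10 axis for each of the 10 genes in the 18 libraries of the E14 and truncation lines. Points are single libraries, coloured by group, and short lines are group means. For Cubn, Dab2 and Apob every ESC point lies below every NPC point. Their 3 NPC Podxl pA points (548 to 603 CPM for Cubn) lie above the NPC E14 WT points (237 to 357 CPM).

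In NPCs, 3 of the 7 tested genes were called higher in the Podxl pA line than in E14 WT, and these were Cubn, Dab2 and Apob. Among all 13268 tested genes, 0.55% were called, and 0.384% were called higher. Cubn was at 555, 548 and 603 CPM in NPC Podxl pA against 237, 357 and 242 CPM in NPC E14 WT (log2 fold change 1.02, SE 0.19, adjusted p = 0.00615, edgeR). The libraries did not overlap, but the call was lost without the first (adjusted p = 0.0767) or the third (0.0628) NPC E14 WT library and in DESeq2 (0.947). Dab2 was at 340, 331 and 331 CPM against 151, 170 and 166 CPM (log2 fold change 1.04, SE 0.13, adjusted p = 4.3e-05). Apob was at 16.2, 18.6 and 18.3 CPM against 7.77, 9.78 and 7.41 CPM (log2 fold change 1.05, SE 0.23, adjusted p = 0.019), lost when any 1 of the NPC E14 WT libraries or the second or the third NPC Podxl pA library was left out (adjusted p = 0.0572 to 0.118). Each of the 3 was about 2-fold higher. Each was also called in NPC-ΔZF1 against NPC-WT, where 7 of the 9 tested genes of this set were called, so the overlap is a description. That comparison shares no library with this one. Podxl itself differed the other way there, at 409 to 421 CPM in NPC-WT and 533 to 567 CPM in NPC-ΔZF1. Grb10 was at 586 to 591 CPM in NPC Podxl pA and 769 to 814 CPM in NPC E14 WT. The part of these levels in the calls was not tested.

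The other members of the system did not pass the test in NPC Podxl pA. Lrp2 was at 486, 464 and 482 CPM against 427, 586 and 422 CPM (log2 fold change -0.01, SE 0.10), so that Podxl pA lay inside the control range. The per-length ratio of Cubn to Lrp2 was 1.28 to 1.40 in NPC Podxl pA and 0.62 to 0.68 in NPC E14 WT. Amn (9.25, 8.09 and 8.84 against 5.18, 5.81 and 4.72 CPM) and Rbp4 (6.17, 7.34 and 7.50 against 3.24, 4.58 and 5.06 CPM) did not overlap with their controls, with log2 fold changes of 0.70 and 0.70 and adjusted p of 0.36 and 0.354. Apoe was at 104, 120 and 107 CPM against 90.0, 102 and 89.7 CPM. Ttr, not tested, had 22 counts in NPC Podxl pA and 5 in NPC E14 WT, a ratio of 3.65 with a counting interval of 1.35 to 12.3.

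In ESCs, 0 of the 7 tested genes were called between Podxl pA and WT by edgeR and 0 by DESeq2, with 4 (Cubn, Amn, Lrp2 and Apoe) at an unadjusted p below 0.05 and 0.339% of all tested genes called. Cubn was at 0, 0.94 and 11.3 CPM in ESC Podxl pA, and its log2 fold change of 2.24 became 0.26 without the third library. That library also held the most Dab2 of the group (9.79 CPM against 2.08 and 4.06) and the most Podxl (12.9 CPM against 3.01 and 3.44). The part of that library's makeup in the ESC values was not tested. The interaction of Podxl truncation with cell state was called for 0 of 7 genes by edgeR and 0 by DESeq2 (0.098% of all tested genes), with 2 (Apoe and Rbp4) at an unadjusted p below 0.05, so the Podxl pA effects in NPCs and ESCs were not shown to differ.

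In the Grb10 pA line Apoe was higher in NPCs than in E14 WT. It was the 1 gene called of the 7 tested, beside 16.5% of all tested genes and 7.9% called higher. Apoe was at 179, 188 and 188 CPM in NPC Grb10 pA against 90.0, 102 and 89.7 CPM in NPC E14 WT (log2 fold change 0.97, SE 0.11, adjusted p = 1.37e-07, edgeR). Cubn was at 180, 234 and 238 CPM (log2 fold change -0.37, SE 0.20, adjusted p = 0.16) and Dab2 at 133, 177 and 181 CPM (log2 fold change -0.00, SE 0.13). Both overlapped with the control. Lrp2 was at 536, 625 and 610 CPM, with an adjusted p of 0.0329 and a log2 fold change of 0.30, under the fold threshold. Apob, at 9.90, 10.97 and 12.8 CPM, lay above the control without passing the test (adjusted p = 0.244).

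In ESCs 0 of the 7 tested genes were called between Grb10 pA and WT by edgeR and 0 by DESeq2, with 1 (Amn) at an unadjusted p below 0.05 and 9.09% of all tested genes called. Amn was called when the first ESC Grb10 pA library was left out (adjusted p = 0.0334). Apoe was at 102, 137 and 99.3 CPM in ESC Grb10 pA and 115, 89.9 and 97.5 CPM in ESC E14 WT, which overlap. The interaction with cell state was called for Apoe alone among the 7 (difference of log2 fold changes 0.82, SE 0.15, adjusted p = 0.0014, edgeR), beside 5.9% of all tested genes called and 2.86% called higher. The Podxl pA and Grb10 pA comparisons share the E14 WT libraries.

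The 6 transcription factors of the visceral endoderm list rose without exception in NPC-ΔZF1 against NPC-WT. This list, like those that follow, was drawn up with earlier results of these data known, and its count is not independent evidence. Hnf4a, Sox17 and Gata6 had the widest differences, with log2 fold changes of 3.96, 3.16 and 3.12 (adjusted p at most 9.34e-05, edgeR), and the median over the list was 2.90. Hnf4a, a nuclear receptor that drives lipid and plasma protein genes, was at 0.38 to 0.77 CPM in NPC-WT and 7.08 to 9.38 CPM in NPC-ΔZF1. Gata6, an early regulator of primitive endoderm, was at 8.01 to 10.4 CPM and 75.6 to 82.3 CPM. In NPC Podxl pA against WT 2 of the 6 rose, Hnf4a and Gata4 (log2 fold changes 1.28 and 0.72), beside 0.384% of all tested genes. All 6 had an unadjusted p below 0.05 (edgeR). The summed level of the list was 197 to 207 CPM in NPC Podxl pA and 115 to 141 CPM in NPC E14 WT. In NPC Grb10 pA 2 of the 6 fell, Sox7 and Gata6 (log2 fold changes -0.89 and -0.88), beside 16.5% of all tested genes called. In ESC-ΔZF1 against ESC-WT 1 rose, Sox7 (log2 fold change 2.01, adjusted p = 0.0154, edgeR), beside 1.29% of all tested genes.

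The wider list of endocytic genes was mixed. Of 22 uptake partners, 7 rose and 2 fell in NPC-ΔZF1, and their median log2 fold change was -0.08, beside 17.6% of all tested genes called and 7.19% called higher, the background for each list in this comparison. Myo6, a motor that moves endocytic vesicles, had the largest difference (2.30, SE 0.13), followed by Lrpap1, the chaperone that escorts megalin and its relatives through the secretory pathway (1.47), and the lipoprotein receptor Vldlr (1.12). Folr1, Clcn5, Stra6 and Lrp8 rose by 0.65 to 0.69 on the log2 scale, and Scarb1 and Ap2b1 fell by 0.66 and 0.53. Clathrin heavy chain (Cltc) was not called, nor were the other 4 subunits of the AP-2 adaptor complex on the list. Myo6 was also called in NPC Podxl pA (log2 fold change 0.67), the only uptake partner that was. There 7 of the 22 had an unadjusted p below 0.05 (edgeR).

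Of 14 transport partners 9 were tested in the rescue table, and in NPC-ΔZF1 2 rose and 1 fell. Mttp, which loads lipid onto apolipoprotein B, rose from 6.79 and 9.11 CPM to 40.4 and 40.7 CPM (log2 fold change 2.33, SE 0.16), and Apom, an apolipoprotein of small lipoproteins, rose by 2.35. Pltp, which moves phospholipid between lipoproteins, fell by 0.65. Apoa2, Apoa4, Apoc2, Apoc3 and Apoh had no counts in NPC-WT, and of these Apoc2 and Apoh had none in NPC-ΔZF1 either. Of 13 other secreted plasma proteins only 4 passed the filter, and 1, Ahsg, rose (log2 fold change 1.66, adjusted p = 0.0347 in edgeR), a call lost in DESeq2 (adjusted p = 0.108). Albumin, the abundant relative of Afp, had no counts in either group, and the summed level of the list was 6.65 to 8.77 CPM in NPC-WT and 7.21 to 7.58 CPM in NPC-ΔZF1.

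**Figure D4:**
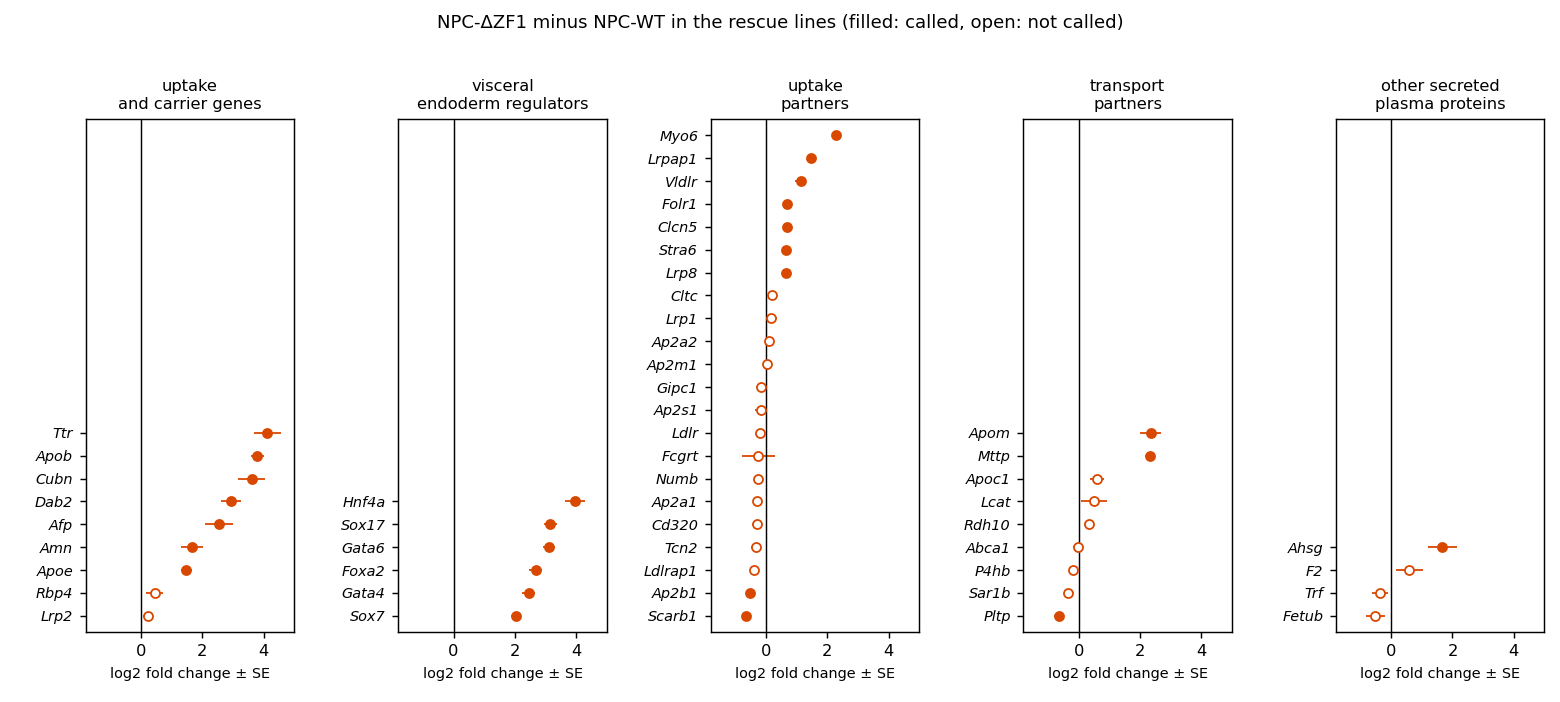
Log2 fold change of NPC-ΔZF1 against NPC-WT, with standard error, for tested genes of 5 lists, sorted within each list. Filled points were called. The 9 tested uptake and carrier genes and the 6 visceral endoderm regulators lie to the right of 0, while uptake and transport partners lie on both sides of it.

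Markers of other cell types were also called between the same 2 groups, beside 17.6% of all tested genes called and 7.19% called higher. Parietal endoderm, the other extraembryonic endoderm lineage, had 4 of 5 tested markers higher in NPC-ΔZF1 (Srgn, Lama1, Plat and Col4a1), and the summed level of its 6 markers was 1107 to 1444 CPM in NPC-WT and 4438 to 4462 CPM in NPC-ΔZF1. Definitive and anterior visceral endoderm markers gave 0 of 5 called by edgeR and 0 by DESeq2, with 1 at an unadjusted p below 0.05. Embryonic stem cell markers likewise gave 0 of 6 by either tool, with 1 at an unadjusted p below 0.05. Neural progenitor markers gave 1 of 5 higher (Sox1) and 1 lower (Nes), with summed levels of 106 to 144 CPM in NPC-WT and 106 in both NPC-ΔZF1 libraries. Trophectoderm had 3 of 4 lower (Krt7, Hand1 and Tfap2c), mesoderm 1 of 4 (Kdr), neurons 1 of 2 (Tubb3) and blood and yolk sac 1 of 2 (Hbb-bh1). Of these, Hand1 and Kdr were not called by DESeq2, which gave no adjusted p for Hbb-bh1. Choroid plexus, which also makes Ttr, had 1 of 2 tested markers higher (Clic6), at a summed 13.7 to 14.4 CPM in NPC-WT and 25.97 to 26.9 CPM in NPC-ΔZF1. The part of these cell types in the member values was not tested. In NPC Podxl pA against NPC E14 WT, 3 of 5 parietal endoderm markers were higher, with a summed level of 1195 to 1290 CPM against 778 to 960 CPM. The background in that comparison was 0.55% of all tested genes called and 0.384% called higher. There 1 of 2 choroid plexus markers was higher (Clic6, a call lost in DESeq2), at a summed 49.1 to 51.7 CPM against 36.9 to 44.8 CPM, and 1 of 6 stem cell markers was higher (Tbx3). Neural progenitors had 1 of 4 lower (Sox1), at 94.1 to 97.4 CPM against 117 to 133 CPM, and definitive and anterior visceral endoderm 1 of 4 (Trh).

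Other marker lists held called genes in NPC Grb10 pA, where Apoe rose. The background there was 16.5% of all tested genes called and 7.9% called higher. A list this short with 1 called gene is not set apart by its count. Choroid plexus had 2 of 2 markers higher (Otx2 and Clic6), at a summed 64.3 to 77.0 CPM against 36.9 to 44.8 CPM in NPC E14 WT. Neural progenitors had 3 of 4 lower (Sox1, Pax6 and Nes), at 50.6 to 60.8 CPM against 117 to 133 CPM, and neurons 1 of 2 lower (Tubb3), at 17.4 to 22.5 CPM against 63.4 to 75.4 CPM. Definitive and anterior visceral endoderm had 2 of 4 lower (Dkk1 and Trh), at 9.11 to 12.7 CPM against 30.7 to 41.8 CPM. Parietal endoderm had 0 of 5 higher and 1 lower (Col4a1), at 735 to 877 CPM summed. Stem cell markers had 2 of 6 higher (Nanog and Esrrb) and 1 lower (Klf4), and trophectoderm 1 of 4 higher (Hand1) and 1 lower (Cdx2). The part of these cell types in the Podxl pA and Grb10 pA values was not tested.

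Across the 8 rescue libraries, 8 of the 9 tested genes followed the mean of the others (Pearson's r from 0.74 for Apoe to 0.96 for Ttr), and Rbp4 ran against it (r = -0.50). Across the 18 libraries of the other table r ran from 0.46 for Apoe to 0.97 for Lrp2. These correlations describe libraries that share cell state and line. Among 12371 other genes, those whose log2 CPM was most like the mean of the 9 genes were Ank (r = 0.999), Lrpap1 (0.994), Nrg1 (0.994), Stard8 (0.993) and Slc39a8 (0.992). Nrg1, a growth factor, was at a mean of 10.4 CPM in NPC-WT and 73.4 CPM in NPC-ΔZF1. Slc39a8, a zinc and manganese transporter, was at 4.71 and 39.8 CPM.

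The 10 protein-coding genes lie on 8 chromosomes (GRCm38, GENCODE M21). Cubn (13276338 to 13491813) and Lrp2 (69424340 to 69586065) are both on chromosome 2, minus strand, and Amn (111271095 to 111276426) and Apob (7977648 to 8016835) are both on chromosome 12, plus strand. Dab2 spans 6299788 to 6440712 on chromosome 15, Afp 90490737 to 90508907 on chromosome 5 and Apoa1 46228580 to 46230466 on chromosome 9, on the plus strand. Apoe spans 19696109 to 19699188 on chromosome 7 and Rbp4 38116629 to 38125281 on chromosome 19, on the minus strand. Promoter windows from RefSeq (GRCm38.p6) ran from 250 bases before to 50 after a start. For 9 of the genes, Ttr excepted, 13 windows were used. They were searched on both strands for 5 strings typical of the listed transcription factor families. These were AGATAA or the variant TGATAA for GATA factors, then TGTTTAC for FOXA factors, the letters CAAAGTC for HNF4 factors, and lastly ACAATG for SOX factors. TGATAA was found in windows of Apoa1 and Dab2, 2 of 13 against 9.05% of 32851 promoters. Of the others, AGATAA was found in Dab2 (11.2% of promoters), TGTTTAC in Apoe and Rbp4 (3.65%), ACAATG in Apoe (12.6%) and CAAAGTC in none (4.44%). The stretches that follow are shown 5′ to 3′ on the gene's strand with the match in capitals, to place these letters in Dab2, which rose, in Apoe, which rose in both cell states, and in Rbp4, which did not pass the test. In the second stretch of Apoe and in Rbp4 the capitals are the reverse complement of TGTTTAC.
Dab2, chr15:6299599-6299627, plus strand: gatttttcttcTGATAAcaggaataggag
Apoe, chr7:19699315-19699343, minus strand: ctcttttctttACAATGcaccagaccccg
Apoe, second start, chr7:19698397-19698414, minus strand: ggcaaggggagGTAAACA
Rbp4, chr19:38125543-38125571, minus strand: aaatgcatgGTAAACActtggcaattatg
The matches begin 179 (Dab2), 144 and 5 (Apoe) and 241 (Rbp4) bases before the respective start. Of the genes with TGTTTAC, Apoe rose in NPC-ΔZF1 and Rbp4 was not called, and Cubn, Amn, Afp and Apob rose without any of these 5 strings in their windows. A match describes letters in the window and is not evidence of a bound site.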

How the data were processed

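The deposited files held raw counts per gene, which the authors made by aligning paired reads from rRNA-depleted total RNA to mm10 with STAR and counting with featureCounts, without strand. The annotation used is not given in the sources used here. Genes that passed filterByExpr (16641 in the rescue table, 13268 in the truncation table) were fitted with edgeR 4.0.16 (TMM, quasi-likelihood) on R 4.3.3, all libraries of a table in 1 fit. Calls needed an adjusted p of at most 0.05 and an absolute log2 fold change of at least 0.5. The procedure was tested on simulated data. Alternatives were DESeq2 1.42.0, RLE factors, no filter, a minimum of 10 counts per library, fits of single comparisons, replicate number as a block, an adjusted p of 0.01, and each library left out. Of the columns, 3 matched no sample and were not used. A floor is 3 counts, and intervals cover counting error only. Exon lengths came from GENCODE M21 (GRCm38) and promoters from RefSeq. The 10 genes, the lists and the markers were chosen with earlier results of these data known; named list genes are the called ones with the largest change in NPC-ΔZF1 against NPC-WT and those needed to account for small counts. Of the lists, 2 genes are not reported here, and neither is 1 of the promoter strings.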

Additional observations from a re-analysis of the deposited data

Results flagged for a closer look

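The ΔZF1 effect differed between NPCs and ESCs, by the interaction term of the edgeR fit, for Cubn (4.01 on the log2 scale, SE 0.66, adjusted p = 0.0141), Dab2 (3.53, SE 0.49, adjusted p = 0.00801) and Apob (3.59, SE 0.36, adjusted p = 0.00198). In each the ESC libraries of both lines overlapped, and the 2 NPC-ΔZF1 libraries lay above the 2 NPC-WT libraries. The Grb10 pA effect differed between NPCs and ESCs for Apoe (0.82, SE 0.15, adjusted p = 0.0014), where 3 of 3 NPC Grb10 pA libraries lay above the 3 NPC E14 WT libraries and the ESC libraries overlapped.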

How the results depend on the processing

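No alternative turned the direction of a called member value, and 2105 of the alternative values kept their side of the threshold, 28 gained a call and 36 lost one. With no filter the members called became 2 for ESC-ΔZF1 against ESC-WT, 1 for Podxl pA in ESCs, 1 for the Podxl pA interaction and 2 for the Grb10 pA interaction. With at least 10 counts in every library, which leaves 6 members in the rescue table and 2 in the truncation table, they became 4 for NPC-ΔZF1 against NPC-WT, 5 for NPC-ΔZF1 against ESC-ΔZF1, 1, 1 and 2 for NPCs against ESCs in E14 WT, Podxl pA and Grb10 pA, and 0 for Podxl pA in NPCs. Leaving out 1 library gave 0 to 2 members for ΔZF1 in ESCs, 5 to 7 in NPCs, 1 to 5 for their interaction (5 without either NPC-WT library, 1 without the first ESC-ΔZF1 library), 1 to 3 for Podxl pA in NPCs, 0 to 1 for Grb10 pA in ESCs and 1 to 2 for its interaction.

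The replicate numbers did not pair the samples: deviations of same-numbered libraries correlated at -0.137 to 0.132 in the rescue table and -0.209 to 0.154 in the other. The replicate block called 7 members for NPC-ΔZF1 against NPC-WT, 1 in ESCs and 3 for the interaction, and changed no count of members in any comparison. Over all genes, ESC-ΔZF1 against ESC-WT gave 601 calls, 1088 with no filter, 1601 from its own groups alone and 52 at 0.01. NPC-ΔZF1 against NPC-WT gave 2936, 1222 from its own groups and 1455 at 0.01. The ΔZF1 interaction gave 449, 680 in DESeq2, 1139 with no filter and 74 at 0.01. For NPCs against ESCs in E14 WT, Podxl pA and Grb10 pA, 4351, 4224 and 4590 became 2683, 2533 and 2860 with at least 10 counts in every library. Podxl pA gave 45 in ESCs (17 to 94), 73 in NPCs (40 to 133) and 13 for its interaction (6 to 108), and Grb10 pA 1206 in ESCs and 783 for its interaction, 784 and 314 at 0.01. Causes were not tested. Ttr, Afp and Apoa1 had at most 11 counts in any truncation library, below the filter there.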
